A study of Rattus norvegicus with 12 samples.

Results

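The genes described here are the 9 genes that give a spinal neuron its transmitter: Slc17a6 and Slc17a7 for glutamate, Slc32a1 and Slc6a5 for GABA and glycine transport, Gad1 and Gad2 for GABA synthesis, and Chat, Slc18a3 and Slc5a7 for acetylcholine. They were chosen by name, for their roles in transmitter systems and with earlier results of these data known, and all 9 were found among the 17423 genes of each table. Expression was measured by RNA-seq of polyadenylated RNA from a 1-mm piece of spinal cord taken through the centre of a contusion. The 4 groups held 3 rats each. The SD rats were Sprague-Dawley (Hsd:SD), an outbred strain with a thymus, and the AN rats were athymic nude (Hsd:RH-rnu/rnu), a strain that lacks a working thymus and so mature T cells. One group of each strain was killed 1 week after injury (acute phase) and another group of each strain 8 weeks after it (chronic phase), so no rat appears in both phases. All 12 rats were adult females, 16 to 18 weeks old when injured; all were injured at 200 kdyn with the Infinite Horizon impactor, and all were perfused with PBS before the cord was frozen. The strains differ in genetic background as well as in the thymus, and the effects of these cannot be told apart in this design. No uninjured cord was analysed here.

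A neuron releases a fast transmitter only if it can make it, load it into vesicles and clear or recycle it, and each of these steps is carried by few genes. In the spinal cord VGLUT2, the product of Slc17a6, marks most local excitatory neurons, the vesicular transporter encoded by Slc32a1 marks GABA and glycine neurons together, and choline acetyltransferase and its partners mark motor neurons, preganglionic neurons and some interneurons. VGLUT1, the product of Slc17a7, sits mainly in the endings of sensory and descending fibres whose cell bodies lie outside the segment.

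Levels are given as FPKM, a fragment count scaled to the exon length of the gene and, by quartile normalization, to the library, so that levels of different genes in a group can be set side by side. The tables hold 1 pooled FPKM for each group of 3 rats. The strain difference is the log2 fold change (log2FC), taken as AN divided by SD without a pseudocount, and a gene was counted as lower or higher in AN rats where the values differed by at least 2-fold. The spread between rats and the reads behind each gene are not in the values used here, and the authors' own test columns were not used. So no test was run, no error is given, and no difference below is set against the variation between rats. In a bulk segment, fewer neurons of a type and less RNA per neuron cannot be told apart.

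The promoters of 4 members are shown because they belong to the 2 pairs on which the results turn: Chat and Slc18a3, which are neighbours in the genome and had nearly equal chronic differences, and Gad1 and Gad2, which encode enzymes of the same step and differed in the acute phase. The sequences are those of RefSeq on GRCr8, from 250 bases before to 50 bases after the gene start, 5′ to 3′ on the strand of the gene. Chat is at chr16:7723367-7723666 and Slc18a3 at chr16:7722765-7723064, both on the minus strand. Gad1 is at chr3:75777202-75777501 and Gad2 at chr17:89671468-89671767, both on the plus strand. Capitals mark matches on either strand to 3 motifs. The TATA box was searched as TATAAA. The GC box was searched as GGGCGG. The remaining motif was searched as CCAAT.
Chat: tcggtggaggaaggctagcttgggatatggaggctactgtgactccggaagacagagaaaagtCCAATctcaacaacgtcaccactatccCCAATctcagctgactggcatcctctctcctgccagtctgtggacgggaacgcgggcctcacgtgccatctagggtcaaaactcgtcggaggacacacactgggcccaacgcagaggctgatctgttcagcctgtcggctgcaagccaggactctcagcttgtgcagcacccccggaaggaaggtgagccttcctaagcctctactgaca
Slc18a3: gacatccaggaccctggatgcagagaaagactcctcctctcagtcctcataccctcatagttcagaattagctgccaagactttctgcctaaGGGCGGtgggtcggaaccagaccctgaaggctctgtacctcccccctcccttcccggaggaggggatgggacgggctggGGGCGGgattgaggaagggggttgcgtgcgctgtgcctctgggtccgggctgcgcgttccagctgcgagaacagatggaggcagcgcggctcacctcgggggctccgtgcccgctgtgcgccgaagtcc
Gad1: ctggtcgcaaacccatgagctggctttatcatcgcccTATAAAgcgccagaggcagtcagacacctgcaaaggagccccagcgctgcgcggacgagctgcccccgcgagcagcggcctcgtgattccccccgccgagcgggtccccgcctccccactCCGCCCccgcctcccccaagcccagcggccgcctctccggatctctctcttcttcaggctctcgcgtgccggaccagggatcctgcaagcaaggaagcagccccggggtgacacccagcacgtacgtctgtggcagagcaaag
Gad2: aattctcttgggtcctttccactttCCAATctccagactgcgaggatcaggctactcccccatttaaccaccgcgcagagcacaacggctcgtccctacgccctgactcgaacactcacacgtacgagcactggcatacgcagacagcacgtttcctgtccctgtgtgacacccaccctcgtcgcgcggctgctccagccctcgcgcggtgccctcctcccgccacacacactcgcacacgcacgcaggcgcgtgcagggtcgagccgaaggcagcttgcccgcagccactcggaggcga
The starts of Chat and Slc18a3 lie 602 bases apart on the same strand, the arrangement known as the cholinergic gene locus, in which the vesicular transporter gene is nested in the choline acetyltransferase gene. Their windows do not share a motif: that of Chat held 2 CCAAT matches and no GC box, and that of Slc18a3 held 2 GC boxes and no CCAAT. The window of Gad1 held 1 TATA box and 1 GC box, whereas that of Gad2 held 1 CCAAT. All 9 members had a window in the promoter table. The TATA box letters were found in 2 of them (Gad1 and Slc5a7) and in 14.2% of all 33469 windows. The GC box letters were found in 5 of them and in 33.1% of all windows, and CCAAT in 4 of them and in 37.5% of all windows. The median GC content was 63.7% for the members and 51.7% for all windows. A match describes the letters only, not a site in use.

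All 9 transmitter genes had a lower FPKM in AN than in SD rats at both 1 and 8 weeks. In the acute phase 8 of the 9 were at least 2-fold lower in AN rats, and the same 8 were at least 4-fold lower, the exception being Gad1. At 8 weeks 9 of 9 were at least 2-fold lower and 6 were at least 4-fold lower. No member was 2-fold higher in AN rats in either phase. Over all genes that reached an FPKM of 1 in a strain, 11.4% were at least 2-fold lower in AN rats in the acute phase (1291 of 11326), 3.82% were at least 4-fold lower and 2.07% were at least 2-fold higher. The same shares in the chronic phase were 6.33% at least 2-fold lower (723 of 11429), 2.21% at least 4-fold lower and 2.27% at least 2-fold higher. Slc17a7 was under an FPKM of 1 in every group, and without it the counts were 7 of 8 at 1 week and 8 of 8 at 8 weeks. Of these 8 members, 6 reached that limit only in SD rats at 1 week and 2 at 8 weeks. The limit itself thus favours genes low in AN rats, and the counts over them are a description that supports nothing. Among the members that reached 1 in both strains, 1 of 2 was at least 2-fold lower at 1 week and 6 of 6 at 8 weeks. With the limit lowered to 0.1, 15.1% of all genes were at least 2-fold lower at 1 week and 8.72% at 8 weeks. Slc17a7 passed this limit only in SD rats, and so did Chat at 1 week. Among the members that reached 0.1 in both strains, 6 of 7 were at least 2-fold lower at 1 week and 8 of 8 at 8 weeks.

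The median log2FC of the 9 members was −4.62 at 1 week and −2.75 at 8 weeks. For the 8 members that reached an FPKM of 1 it was −4.55 and −2.42. Over all genes that reached an FPKM of 1 the medians were −0.00157 and 0.0044, with quartiles of −0.35 and 0.24 at 1 week and of −0.19 and 0.18 at 8 weeks. Of these, 2 genes in the acute phase had a lower log2FC than Chat and 8 a lower one than Slc6a5. Both members reached the limit only in SD rats, with AN values of 0.0345 and 0.121, so these ranks rest on low values. At 8 weeks 21 genes had a lower log2FC than Slc32a1, and 405, 436 and 453 a lower one than Chat, Slc18a3 and Slc5a7. Slc17a7 did not reach an FPKM of 1. Among genes that reached 0.1, which Slc17a7 did only in SD rats, 57 had a lower log2FC at 8 weeks.

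**Figure D1:**
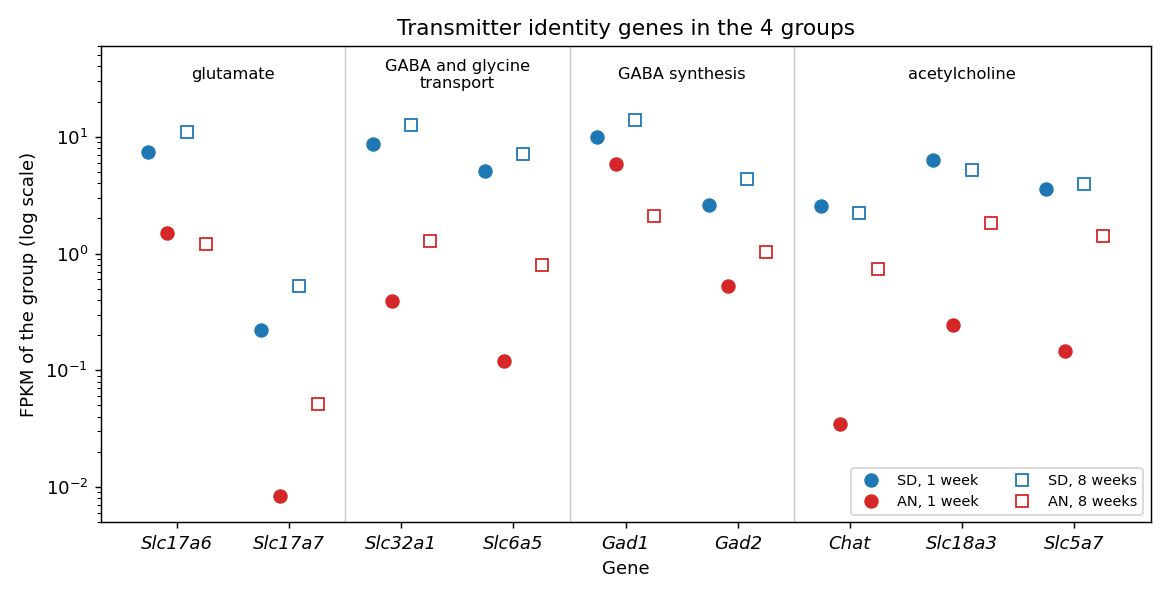
FPKM (log scale) of the 9 transmitter genes in the 4 groups, where each symbol is the single value the authors give for 3 rats, with SD in blue, AN in red, circles for 1 week and squares for 8 weeks. Every red symbol lies below the blue symbol of the same shape, the acute gap being narrowest for Gad1 (10.02 against 5.90) and widest for Chat (2.55 against 0.0345).

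VGLUT2 loads glutamate into the vesicles of local excitatory neurons. The FPKM of its gene Slc17a6 (RN4 chr1:101425974-101466023) was 7.36 (SD) against 1.51 (AN) at 1 week, and 10.95 (SD) against 1.20 (AN) at 8 weeks. The log2FC was −2.28 at 1 week and −3.19 at 8 weeks, a difference of 4.87-fold and 9.12-fold. The 2 AN values lay close together and both far below the SD values, and among the 9 members Slc17a6 ranked 3 in both SD groups, 2 in acute AN and 5 in chronic AN rats.

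VGLUT1 does the same in the endings of primary afferents and descending fibres. Slc17a7 (RN4 chr1:95640742-95651938) was the lowest of the 9 members in all 4 groups, with a 1-week FPKM of 0.220 (SD) against 0.00844 (AN) and an 8-week FPKM of 0.525 (SD) against 0.0513 (AN). These give a log2FC of −4.70 and −3.36. In acute AN rats only 0.865% of the genes with an FPKM above 0 lay below it, so this ratio rests on a value near the bottom of the table. The ratio of Slc17a7 to Slc17a6 was 0.0299 in SD and 0.00558 in AN rats at 1 week, and 0.0480 and 0.0427 at 8 weeks.

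The vesicular inhibitory amino acid transporter loads both GABA and glycine. Slc32a1 (RN4 chr3:149342398-149347124) had a 1-week FPKM of 8.73 (SD) against 0.393 (AN) and an 8-week FPKM of 12.5 (SD) against 1.29 (AN). The log2FC was −4.47 (22.2-fold) and −3.28 (9.69-fold). Among the 9 members the gene ranked 2 in both SD groups and 4 in both AN groups.

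GlyT2 returns glycine to the endings of glycinergic neurons and marks them. Slc6a5 (RN4 chr1:99741712-99793301) had a 1-week FPKM of 5.06 (SD) against 0.121 (AN) and an 8-week FPKM of 7.11 (SD) against 0.798 (AN). The corresponding log2FC was −5.38 (41.7-fold) and −3.16 (8.91-fold). Relative to Slc32a1, which glycinergic neurons share with GABA neurons, Slc6a5 stood at 0.580 in SD and 0.309 in AN rats at 1 week and at 0.569 and 0.619 at 8 weeks. Slc6a5 was below Slc32a1 in all 4 groups. At 8 weeks both genes differed between strains by nearly the same factor, while at 1 week the strain difference was larger for Slc6a5.

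GAD67 and GAD65 make GABA from glutamate, the former throughout the cell and the latter mostly at nerve endings. Gad1 (GAD67, RN4 chr3:52789369-52830038) was the highest member in every group, with a 1-week FPKM of 10.02 (SD) against 5.90 (AN) and an 8-week FPKM of 14.0 (SD) against 2.08 (AN). Its log2FC of −0.76 (1.70-fold) in the acute phase was the smallest of the 9, and 1670 of 11326 genes had a lower one. At 8 weeks it was −2.75 (6.73-fold), and 93 of 11429 genes had a lower one. Gad2 (GAD65, RN4 chr17:96259429-96321857) had a 1-week FPKM of 2.60 (SD) against 0.525 (AN) and an 8-week FPKM of 4.38 (SD) against 1.02 (AN), with a log2FC of −2.31 and −2.10. The strain difference of Gad2 was thus nearly the same in both phases (4.96-fold and 4.28-fold), unlike that of Gad1.

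Relative to Gad2 and Slc32a1, Gad1 was high in 1 of the 4 groups, the acute AN rats. The ratio of Gad1 to Gad2 was 11.2 there, against 3.85 (acute SD), 3.20 (chronic SD) and 2.03 (chronic AN). The ratio of Gad1 to Slc32a1 was 15.0 in acute AN rats, against 1.15, 1.12 and 1.61 in the same order. Gad2 was also high relative to Slc32a1 in AN rats, at 1.34 (1 week) and 0.793 (8 weeks), with 0.298 and 0.350 in SD rats. With 1 value per group, whether all 3 acute AN rats share this is not known.

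Choline acetyltransferase makes acetylcholine. Chat (RN4 chr16:7913025-7965985) had a 1-week FPKM of 2.55 (SD) against 0.0345 (AN) and an 8-week FPKM of 2.24 (SD) against 0.745 (AN). Its log2FC was −6.21 (73.9-fold) in the acute phase, the lowest of the 9 without a pseudocount, and −1.59 (3.01-fold) in the chronic phase. In acute AN rats 5.14% of the genes with an FPKM above 0 lay below Chat, so the acute ratio and its rank rest on a low value. This is the 1 member named from its place between named neighbours. Slc17a6, Slc17a7 and Slc6a5 were found by their identifiers and the other 5 through the study's supplementary gene table, which in the copy used holds genes called in the acute phase; Gad2 and Slc5a7 have no name here without it.

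VAChT, the product of Slc18a3, loads acetylcholine into vesicles. Slc18a3 (RN4 chr16:7969737-7972599) had a 1-week FPKM of 6.39 (SD) against 0.246 (AN) and an 8-week FPKM of 5.22 (SD) against 1.82 (AN), with a log2FC of −4.70 (25.9-fold) and −1.52 (2.86-fold). On RN4 its span lies 3751 bases from that of Chat and does not overlap it, whereas in the GRCr8 table it lies inside Chat on the same strand. How reads were split between both genes is not given in the sources used here.

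The high-affinity transporter CHT1 brings choline back into cholinergic endings. Slc5a7 (RN4 chr9:133837-165943) had a 1-week FPKM of 3.56 (SD) against 0.145 (AN) and an 8-week FPKM of 3.97 (SD) against 1.42 (AN), with a log2FC of −4.62 (24.5-fold) and −1.48 (2.80-fold). It lies on another chromosome than Chat and Slc18a3, so its reads are separate from theirs. The 3 cholinergic genes had the 3 smallest strain differences of the 9 in the chronic phase, from 2.80-fold to 3.01-fold, and differences of 24.5-fold to 73.9-fold in the acute phase. The ratio of Slc5a7 to Slc18a3 was 0.557 (SD) and 0.589 (AN) at 1 week, and 0.762 (SD) and 0.780 (AN) at 8 weeks. That of Chat to Slc18a3 was lower in acute AN rats than in the other groups, at 0.40 (SD) and 0.140 (AN) at 1 week, and 0.429 (SD) and 0.409 (AN) at 8 weeks.

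**Figure D2:**
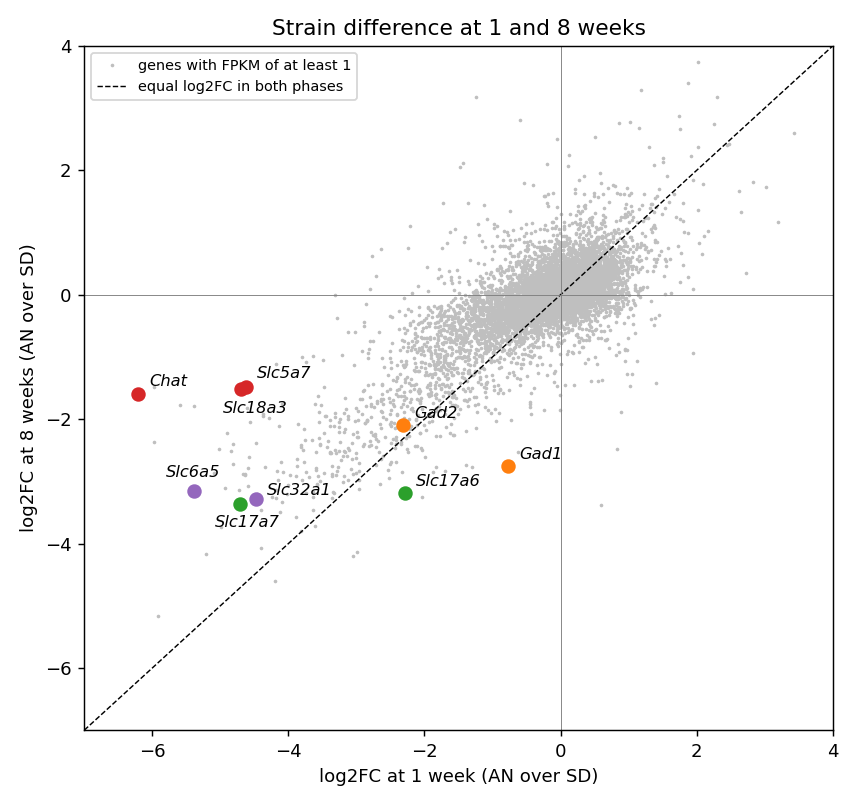
Log2FC (AN over SD) at 1 week on the x axis and at 8 weeks on the y axis, for the 9 members in colour (green for glutamate, purple for GABA and glycine transport, orange for GABA synthesis, red for acetylcholine) and for 11108 genes that reached an FPKM of 1 in each phase in grey, 11 of which lie outside the axes. Slc17a7 is drawn although it is under that limit. The cholinergic genes lie far above the dashed line of equal log2FC, with −6.21 to −4.62 on the x axis and −1.59 to −1.48 on the y axis, and Gad1 and Slc17a6 lie below it.

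The strain difference was larger at 1 week for 7 members and larger at 8 weeks for 2. Of the members passing the FPKM limit of 1 in both phases, 6 of 8 had a smaller difference at 8 weeks. In the lists below, so did 13 of 15 other transmitter, 10 of 11 oligodendrocyte and 7 of 8 Schwann cell genes. The counts were 7 of 13 for neuropeptide, 3 of 6 for fibroblast and 1 of 4 for endothelial genes. A smaller difference at 8 weeks is thus not particular to the members. Subtracting the chronic from the acute log2FC gave −4.62 for Chat, −3.18 for Slc18a3, −3.13 for Slc5a7, −2.23 for Slc6a5, −1.35 for Slc17a7, −1.20 for Slc32a1 and −0.21 for Gad2. The result was 0.91 for Slc17a6 and 1.99 for Gad1. The sign for Slc17a7 rests on its very low acute AN value, and with a pseudocount of 0.1 it was 0.49. That for Gad2 turned to 0.17 with a pseudocount of 1. The sizes also depend on the low AN values: with a pseudocount of 1 they were −1.43 for Slc18a3, −0.95 for Slc5a7, −0.89 for Chat, −0.26 for Slc6a5 and −0.24 for Slc32a1, and 0.71 for Slc17a6 and 1.61 for Gad1.

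The 2 tables were normalized one by one, so levels set across phases are given for description only. In SD rats 8 members differed by less than 2-fold between the phases: the 8-week over the 1-week FPKM was from 1.40 to 1.68 for Slc17a6, Slc32a1, Slc6a5, Gad1 and Gad2, and 0.817, 0.877 and 1.12 for Slc18a3, Chat and Slc5a7. Slc17a7 was the 1 member at least 2-fold higher at 8 weeks in SD rats (2.39), and none was 2-fold lower. Among all genes that reached 0.1 in a phase, 5.55% were at least 2-fold higher and 5.14% at least 2-fold lower at 8 weeks in SD rats.

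In AN rats the members differed from each other. The 8-week over the 1-week FPKM was 21.6 for Chat, 9.79 for Slc5a7, 7.40 for Slc18a3, 6.58 for Slc6a5 and 3.28 for Slc32a1, which were the 5 of 8 members passing the limit of 0.1 that were at least 2-fold higher. Chat passed this limit only at 8 weeks, and its ratio rests on a 1-week FPKM of 0.0345. Gad2 stood at 1.95 and Slc17a6 at 0.794. Gad1 stood at 0.353, the 1 member at least 2-fold lower at 8 weeks. Slc17a7 stood at 6.07 but was under the limit in both phases. Among all genes, 15.8% were at least 2-fold higher and 7.07% at least 2-fold lower at 8 weeks in AN rats. The median log2 of the 8-week over the 1-week FPKM was 0.49 for the 9 members against 0.02 for all genes in SD rats. In AN rats it was 2.22 for the 8 members that passed the limit, against 0.06 for all genes.

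Ratios between members within a group do not depend on how the groups were scaled to each other. In SD rats the inhibitory marker Slc32a1 and the excitatory marker Slc17a6 were close in level, with a ratio of 1.19 at 1 week and 1.14 at 8 weeks. In AN rats the ratio was 0.260 at 1 week and 1.07 at 8 weeks. The acute AN group was thus low in Slc32a1 relative to Slc17a6, and the chronic AN group was at nearly the SD ratio. The ratio of the cholinergic Slc18a3 to Slc17a6 was 0.868 in SD and 0.163 in AN rats at 1 week, and 0.476 in SD and 1.52 in AN rats at 8 weeks, so that its order between strains was opposite in the phases. Against Slc32a1, Slc18a3 stood at 0.732 in SD and 0.627 in AN rats at 1 week, and at 0.418 and 1.41 at 8 weeks.

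**Figure D3:**
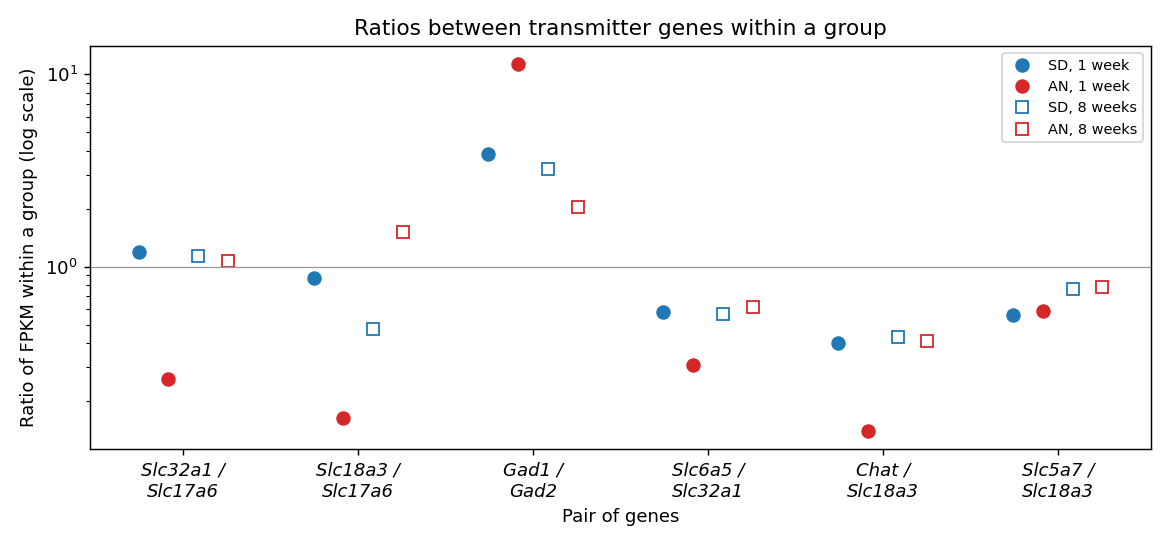
Ratio of the FPKM of 2 transmitter genes within a group (log scale) for 6 pairs, with SD in blue, AN in red, circles for 1 week and squares for 8 weeks. The acute AN group (red circles) lies apart from the other groups for Slc32a1 over Slc17a6 (0.260), Gad1 over Gad2 (11.2) and Chat over Slc18a3 (0.140), while Slc5a7 over Slc18a3 stays between 0.557 and 0.780.

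The members were next set beside genes found in most neurons. Of 20 such genes listed, 14 could be named and all 14 were at least 2-fold lower in AN rats in the acute phase, with a median log2FC of −2.20, and 13 of 14 in the chronic phase, with a median of −1.83. The lowest was Snap25, a vesicle fusion protein, at −4.72 and −3.14. The neurofilament genes Nefl and Nefm stood at −4.56 and −4.37 at 1 week and at −2.04 and −1.95 at 8 weeks. The summed FPKM of the 14 genes in AN rats was 0.198 of that in SD rats at 1 week and 0.326 of it at 8 weeks. All 14 names in this list, and some in the lists that follow, come from a table of genes the authors called in the acute phase. These counts are therefore not independent of the acute difference. For 8 of the 14 the name could also be given by place. Of these, 8 of 8 were at least 2-fold lower in the acute phase and 7 of 8 in the chronic phase. They are acute calls of the authors all the same, so they are no check on that choice.

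The members were also set against the median of this neuron list. In the acute phase Slc17a6 (−0.08) and Gad2 (−0.11) lay at the neuron median and Gad1 lay above it (1.44), in log2 units. Slc32a1, Slc5a7, Slc18a3 and Slc17a7 lay from −2.27 to −2.50 below, Slc6a5 at −3.18 and Chat at −4.01. At 8 weeks the order was another: the cholinergic Chat (0.24), Slc18a3 (0.31) and Slc5a7 (0.35) lay slightly above the neuron median and Gad2 (−0.27) slightly below it. Gad1 lay at −0.92, and the glutamate, glycine and shared inhibitory transporters from −1.33 to −1.53.

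Of 25 transcription factors that go with particular classes of spinal neuron, 14 could be named and 7 reached an FPKM of 1. Of these, 6 were at least 2-fold lower in AN rats at 1 week and 7 at 8 weeks, with medians of −2.40 and −2.00. However, all 7 reached the limit only in SD rats at 1 week, and 6 of them at 8 weeks, so the limit itself favours genes low in AN rats and the counts support nothing. With the limit at 0.1, 9 of 11 were 2-fold lower at 1 week and 10 of 11 at 8 weeks, and among the genes that reached 0.1 in both strains 4 of 6 and 9 of 10 were. Pax2, a factor of inhibitory interneurons named here from its place, had a log2FC of −5.09 at 1 week and −2.87 at 8 weeks, the former resting on an AN FPKM of 0.0486. Tlx3 and Lmx1b, factors of excitatory dorsal horn neurons, stood at −3.24 and −2.22 at 1 week and at −2.00 and −2.15 at 8 weeks. Drgx, also of the dorsal horn, stood at −3.74 and −2.84. Esrrg, found in motor neurons among others, stood at −2.40 and −1.13.

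Of 9 genes listed for motor neurons, 4 could be named, of which 3 were at least 2-fold lower in the acute phase (median −2.63) and 2 in the chronic phase (median −0.67). Prph, an intermediate filament of motor and sensory neurons, had a log2FC of −4.29 and −1.98, Chodl −3.49 and −1.04, Ret −1.77 and −0.28 and Slit3 −0.10 and −0.30. The names Prph, Chodl and Ret come from the table of acute calls. The strain difference was smaller at 8 than at 1 week for 3 of these 4 genes, as it was for 12 of the 14 general neuron genes. The names of these 14 come from the same table. It was also smaller for 10 of 11 oligodendrocyte, 7 of 8 Schwann cell and 8 of 11 microglia and macrophage genes, so it is not particular to neurons. For fibroblast and endothelial genes it was smaller for 3 of 6 and 1 of 4. The dorsal root and afferent list had 2 named genes that reached an FPKM of 1 in each phase, of which 1 was 2-fold lower at 1 week and none at 8 weeks. With the limit at 0.1 these counts were 3 of 4 and 1 of 6. P2rx3, an ATP receptor of nociceptors that reached the limit only in SD rats, stood at −1.71 and −0.48. Mrgprd, a receptor of nociceptors named here from its place, stood at 0.12 and −0.21. The summed FPKM of the 6 named genes in AN rats was 1.04 of that in SD rats at 1 week and 0.854 of it at 8 weeks, but Mrgprd held most of these sums. Without it, an alternative added after seeing the data, the other 5 genes stood at 0.232 and 0.723.

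Neuropeptides, which many of these neurons release beside a fast transmitter, were 2-fold lower for 9 of 13 genes in the acute phase (median −2.54) and for 13 of 14 in the chronic phase (median −2.24). Of these, 5 and 3 reached the limit only in SD rats. Sst, of dorsal horn interneurons, stood at −2.97 and −3.13, Cartpt at −3.25 and −2.13, Cck at −3.11 and −2.49 and Nts at −3.05 and −2.88. Nmu, which passed the limit in the chronic phase only, stood there at −2.94. Calcb, a CGRP gene of motor neurons and afferents, was the 1 gene higher in AN rats in the acute phase, at 42.4 (SD) against 92.6 (AN) FPKM (log2FC 1.13), and was lower in the chronic phase at 6.57 and 3.15 (−1.06).

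Other genes of transmitter transport and turnover, most of which astrocytes and other cells also use, had smaller differences. Of 30 listed, 21 could be named and 15 passed the limit in each phase, with 8 at least 2-fold lower in the acute phase (median −1.06), 2 in the chronic phase (median −0.30) and none 2-fold higher. Nos1, the neuronal nitric oxide synthase, stood at −2.58 and −2.29, and Slc6a11, the GABA transporter GAT3 of astrocytes, at −1.99 and −1.29. Ddc, which makes dopamine and serotonin, stood at −2.07 at 1 week and −0.32 at 8 weeks. Abat, which breaks down GABA, stood at −1.71 and −0.34, and Slc1a2, the main glutamate transporter of astrocytes, at −1.69 and −0.27. At 8 weeks Slc6a13 (0.52), Bche (0.17) and Maoa (0.07) had values above 0.

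Oligodendrocyte, astrocyte and Schwann cell genes held calls past 2-fold at 1 week and none at 8 weeks. Of 14 oligodendrocyte, 12 astrocyte and 10 Schwann cell genes listed, 11, 3 and 8 could be named, so the astrocyte list is mostly missing. In the acute phase 5 of 11 oligodendrocyte genes, 3 of 3 astrocyte genes and 5 of 8 Schwann cell genes were at least 2-fold lower in AN rats. The astrocyte names S100b and Slc1a2 come from the table of acute calls, and Sox10 is in both the oligodendrocyte and the Schwann cell list. The medians of the oligodendrocyte, astrocyte and Schwann cell genes were −0.94, −1.69 and −1.20. By 8 weeks none of 11, none of 2 and none of 8 were, with medians of −0.19, −0.38 and 0.21. Below 0 at 8 weeks were 8 of 11 oligodendrocyte, 2 of 2 astrocyte and 3 of 8 Schwann cell genes. The median of the microglia and macrophage genes was 0.61 at 1 week and −0.03 at 8 weeks, with 2 of 11 higher in the acute phase (Cd14 at 1.17 and Itgam at 1.12). Their 1 gene past 2-fold in the other direction was Lyz2, at −4.19 and −4.60, whose reads a near copy could share. Fibroblast genes had medians of 0.68 and 0.63, with 2 of 6 higher in each phase, and endothelial genes −0.14 and 0.21, with none of 4 past 2-fold. The summed FPKM in AN over that in SD rats was 0.513 for oligodendrocytes, 0.336 for astrocytes, 0.380 for Schwann cells, 1.54 for microglia and macrophages, 1.68 for fibroblasts and 1.02 for endothelium in the acute phase. At 8 weeks it was 0.996, 0.711, 1.12, 1.32, 1.49 and 1.44. Gfap was listed at 0 in chronic SD rats, although it is among the most abundant transcripts in the other groups, and it was left out of the chronic values. The part that a different mix of cells in the segment has in the values of the members was not tested.

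**Figure D4:**
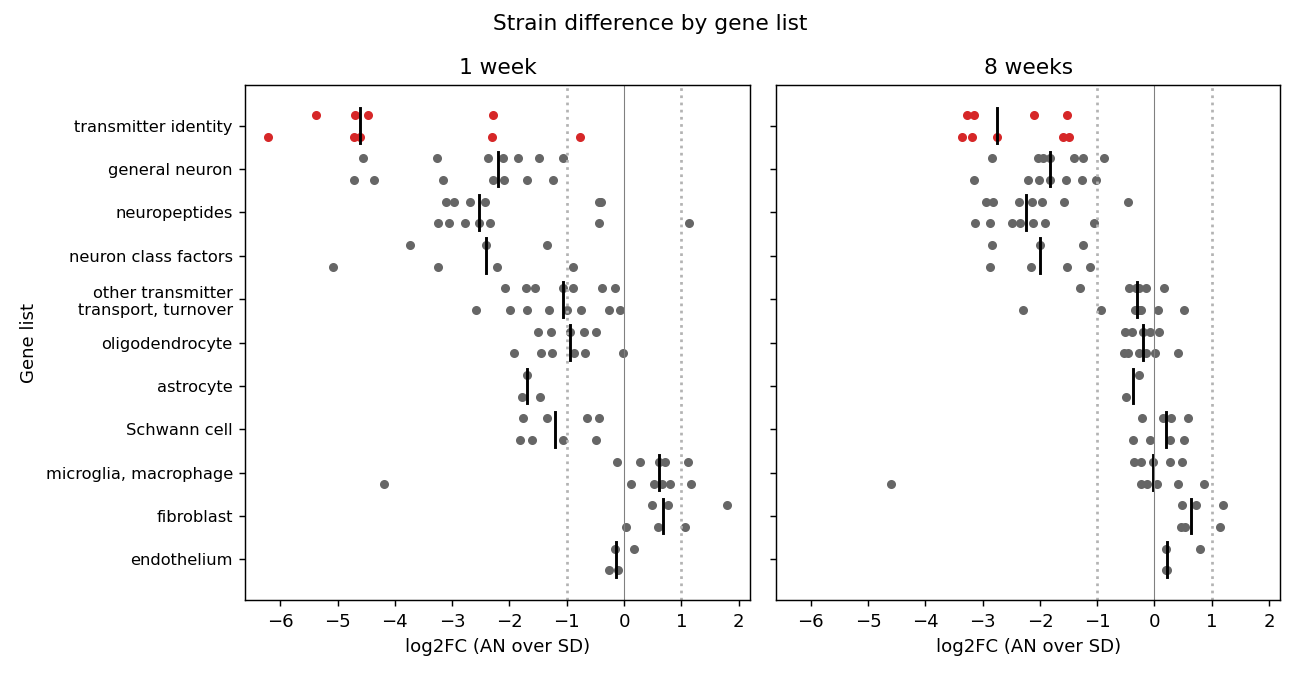
Log2FC (AN over SD) at 1 week (left) and 8 weeks (right) of each named gene that reached an FPKM of 1, by gene list, with the 9 members (Slc17a7 included) in red, medians as black bars and dotted lines at a 2-fold difference. The neuronal lists have medians left of 0 in both panels, of −2.20 and −1.83 for the general neuron list, whereas the oligodendrocyte, astrocyte and Schwann cell medians are −0.94, −1.69 and −1.20 at 1 week and lie between −0.38 and 0.21 at 8 weeks.

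The genes whose strain differences were most like those of the members were sought among 8019 named genes that reached an FPKM of 1 in both SD groups, by the distance of their acute and chronic log2FC from the 2 medians of the members. The nearest was Hapln4, of the matrix around synapses, at −4.59 and −2.78. It was followed by Galnt9 (−4.63 and −2.88), Grm4, a glutamate receptor of nerve endings (−4.66 and −2.88), Cplx1, a regulator of vesicle fusion (−4.58 and −2.62), and Ckmt1, a mitochondrial creatine kinase (−4.64 and −2.89). The likeness is over 2 values per gene and is a description only. Cplx1 had an FPKM of 51.0 (SD) against 2.13 (AN) at 1 week and of 57.2 against 9.33 at 8 weeks.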

How the data were processed

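The study sequenced polyadenylated RNA from the injury site of 12 rats in 4 groups of 3. The authors removed adapters with cutadapt, mapped reads to RN4 with TopHat 1.5.0, assembled transcripts with Cufflinks 0.0.6 using quartile normalization, merged them for each time point and compared strains with Cuffdiff. They deposited 2 tables of 17423 genes, each with 1 FPKM value per group. The tables also hold the authors' log2 fold change, test statistic, p-value, q-value and call, which were not used. The study states reads per rat, which are not repeated here, but the tables do not hold the reads behind each gene, so the precision of each FPKM is unknown.

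Groups were taken from the strain and time point of each sample. Log2 ratios, ratios between genes, counts past 2-fold and medians were computed with Python 3.11.15, numpy 2.4.6 and pandas 2.3.3, and the counting was checked on simulated data. No test was run. Genes were kept at an FPKM of at least 1 in a strain, or at least 0.1 where stated.

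The tables give RGD identifiers. In all 1803 were named from the supplementary gene table, 2735 from the RefSeq gene table of GRCr8 and 6182 from their place between named neighbours; 6703 stayed unnamed. Of 4538 names held out, 2850 were given again by place and 97.3% of these were right. In all 22 symbols carried by more than 1 identifier were left out. The supplementary table, in the shortened copy used, holds genes that the authors called in the acute phase, so counts over lists lean towards these.

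The members and gene lists were chosen with earlier results of these data known. All members are named, and for each list at most 5 genes with the largest absolute log2FC in either phase, plus those of opposite direction, and the 5 genes nearest to the members' medians. Alternatives were pseudocounts of 0.1 and 1, other scalings, thresholds of 1.5-fold and 4-fold, and other namings.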

Additional observations from a re-analysis of the deposited data

How the results depend on the processing

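The direction of every member within a phase, lower in AN rats, was kept under the pseudocounts, scalings and namings tried, other than the alternative taken relative to the neuron list. In the acute phase the median log2FC of the members was −3.90 with a pseudocount of 0.1, −1.78 with 1, −4.71 with groups scaled to the same summed FPKM, −4.55 for members with an FPKM of at least 1, −4.55 without Chat and −2.41 relative to the median of the general neuron list. In the chronic phase it was −2.05 and −1.41 with these pseudocounts, −2.76 when centred on all genes, −2.82 with the same summed FPKM, −2.42 for members with an FPKM of at least 1, −2.95 without Chat and −0.92 relative to the neuron list. At least 2-fold lower were 7 of 9 members in both phases with a pseudocount of 1, and relative to the neuron list 6 at 1 week and 4 at 8 weeks. The acute minus the chronic log2FC changed sign for Slc17a7 (0.49 and 0.26 with pseudocounts of 0.1 and 1) and for Gad2 (0.17 with 1). A pseudocount shrinks the ratios of low values by its construction. The cause of the other shifts was not tested. With only names that do not need the supplementary gene table, an alternative chosen after seeing the data, 8 of 8 general neuron genes were 2-fold lower at 1 week and 7 of 8 at 8 weeks, with the same medians, and 5 of 6 and 6 of 6 transcription factors. These 8 general neuron genes are still in that table, and their names could also be given by place. Motor neuron calls went from 3 and 2 of 4 to 0 of 1 in both phases. Neuropeptide calls went from 9 of 13 to 5 of 8 at 1 week, losing the 1 higher call, and from 13 of 14 to 8 of 9 at 8 weeks. Microglia and macrophage genes lost their lower call in both phases and kept 1 of 2 higher calls at 1 week. Calls among other transmitter genes went from 8 of 15 to 7 of 13 at 1 week and from 2 of 15 to 1 of 13 at 8 weeks. Rats could not be left out in turn, since the values are 1 per group. No paired analysis was possible because no test was run and the values carry no rat.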
